A study of Mus musculus with 10 samples.

Results

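Irx1, Irx2, Pou3f4 and Smarca1 are 4 genes linked to the glucagon-producing alpha lineage, followed here through endocrine differentiation in the embryonic mouse pancreas and set against Gcg, the gene for proglucagon. They are 4 of 27998 genes listed in the version 2 count matrices, and all 4 were found by symbol in every matrix. The set was chosen by the genes' levels in alpha cells against the other endocrine classes and by their onset against Gcg in these data, so both are given as a description and were not tested. The data are 10x droplet single-cell libraries of whole pancreata pooled within a stage. Swiss Webster embryos gave 7 libraries, with no treatment or engineered allele. With the version 1 kit, live cells of E12.5 gave 1 library, those of E14.5 gave 2 (the first and second batch, each from its own litter) and those of E17.5 gave 1, and the E12.5 and E17.5 pools belonged to the second batch. The version 2 kit was used for 1 library at each stage, from live cells depleted of CD140a+ mesenchyme, and the E17.5 pool was run on 2 wells that were summed. An eighth library, also made with the version 2 kit, came from E14.5 Fev-Cre;ROSA26mTmG pancreata on a C57BL/6J background, in which Cre driven from Fev switches a cell and its progeny from membrane tdTomato to membrane GFP. It combined GFP+ cells with tdTomato+ GFP- cells of 1 litter, and its mesenchyme was not depleted.

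Pancreatic endocrine cells arise from Neurog3+ progenitors, pass through a state marked by the transcription factor Fev, and then express a hormone. Irx1 and Irx2 encode Iroquois homeodomain transcription factors that lie in 1 gene cluster and are known from islet alpha cells. Pou3f4, also called Brn4, encodes a POU-homeodomain factor expressed early in the glucagon lineage. Smarca1 encodes SNF2L, an ATPase of the ISWI family that slides nucleosomes within the NURF complex (with Bptf) and the CERF complex (with Cecr2).

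The libraries held between 2309 and 13182 cells, with a median of 3084 to 10252 unique molecular identifiers (UMIs, each 1 captured transcript) per barcode. Cells were grouped without the 4 genes and without Gcg, and a group was called alpha-like, Fev+-like and so on only where its marker genes were detected. The 7 Swiss Webster libraries held 1104 alpha-like cells (36 to 404 per library), 936 Fev+-like cells (20 to 314) and 906 Ngn3+-like cells (20 to 330). The Fev-Cre library held 579, 294 and 179. Levels are counts per 1000000 UMIs (CPM) of the summed cells of 1 class in 1 library, and their 95% intervals are exact Poisson intervals that cover counting error only. Gcg named no class and so checked the alpha-like label: it was at 38171 to 95530 CPM in alpha-like cells, against 33.5 to 9780 CPM in the next class outside cycling cells. Stage cannot be told apart from litter and dissociation time (10 min for E12.5, 15 min for E14.5 and 30 min for E17.5), nor, with version 2, from the day of collection. The depletion of CD140a+ cells cannot be told apart from the kit. The sex of the embryos was not given in the sources used here, and Pou3f4 and Smarca1 lie on the X chromosome.

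In GRCm38 with the GENCODE M21 annotation, Irx1 (ENSMUSG00000060969) spans chr13:71957921-71963723 on the minus strand and Irx2 (ENSMUSG00000001504) spans chr13:72628820-72634198 on the plus strand, with a gap of 665 kb between them. Pou3f4 (ENSMUSG00000056854) lies at chrX:110814280-110817207 on the plus strand and Smarca1 (ENSMUSG00000031099) at chrX:47809368-47892974 on the minus strand. The RefSeq promoter table matched 3 of the 4 genes, all but Irx1. The stretch just before the annotated start is shown for Irx2, which was highest in alpha-like cells, and for Pou3f4, which was not, as a view of their base composition. Both come from RefSeq on GRCm38.p6, plus strand, at chr13:72628570-72628819 and chrX:110814129-110814279, with capitals marking CCAAT searched on both strands.
Irx2: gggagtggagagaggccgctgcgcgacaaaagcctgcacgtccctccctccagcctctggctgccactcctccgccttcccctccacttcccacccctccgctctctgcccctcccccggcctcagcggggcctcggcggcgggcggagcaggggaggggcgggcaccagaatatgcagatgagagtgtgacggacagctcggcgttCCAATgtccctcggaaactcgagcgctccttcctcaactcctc
Pou3f4: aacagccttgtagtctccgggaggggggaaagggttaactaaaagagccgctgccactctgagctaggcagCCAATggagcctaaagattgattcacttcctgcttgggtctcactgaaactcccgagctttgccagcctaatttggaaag
The 250 bases before Irx2 held 19 CpG dinucleotides, where the median of 32851 promoters of that length was 6. The 151 bases before Pou3f4 held 3, equal to the median of 3 at that length. Each window held 1 CCAAT, and 33.8% and 20.1% of all promoters over the same lengths held at least 1.

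Among classes of at least 20 cells in a Swiss Webster library, the alpha-like levels of Irx1 and Irx2 stood apart from those of the other endocrine classes, while smaller groups of epsilon-like cells reached the alpha-like range of Irx2. Irx1 ran from 95.5 CPM through a median of 174 to 285 CPM in alpha-like cells of the 7 Swiss Webster libraries (165 ± 68.6, mean ± SD). No other endocrine class of that size reached that range, and epsilon-like cells, next by mean, were at 10.1 and 16.03 CPM in the 2 libraries with at least 20 of them. Fev+-like cells held 0 to 43.6 CPM of Irx1, and Ngn3+-like cells held no UMI in 906 cells, which allows up to 0.331% of such cells with a UMI. Irx2 was at 80.9 to 424 CPM in alpha-like cells, with a median of 259 CPM (254 ± 133, n = 7). Epsilon-like cells were at 20.2 and 61.5 CPM of Irx2 in the same 2 libraries, below the alpha-like range. The 43 epsilon-like cells of version 1, from 2 to 16 per library, were within it at 230 CPM of Irx2 when summed (34 UMIs, 95% interval 160 to 322), beside 27.1 CPM each of Irx1 and Gcg. In version 2 at E12.5, 17 epsilon-like cells held 136 CPM of Irx2 and 90.6 CPM of Irx1. Other E12.5 groups under 20 cells were high as well, with 484 CPM of Irx2 and 226 CPM of Irx1 (15 and 7 UMIs) in 8 beta-like cells of version 1, beside 28800 CPM of Gcg, and 141 and 128 CPM in 15 cycling cells of version 2, beside 26472 CPM of Gcg. Fev+-like cells held 0.475 to 65.6 CPM of Irx2 and beta-like cells 0 to 27.9 CPM in 5 libraries. Outside the endocrine compartment the Iroquois pair was close to absent: over 56 combinations of class and Swiss Webster library, Irx1 reached 2.73 CPM and Irx2 4.59 CPM at most. In the Fev-Cre library the 7 non-endocrine classes held 1.96 to 6.77 CPM of Irx1 and up to 17.7 CPM of Irx2.

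**Figure D1:**
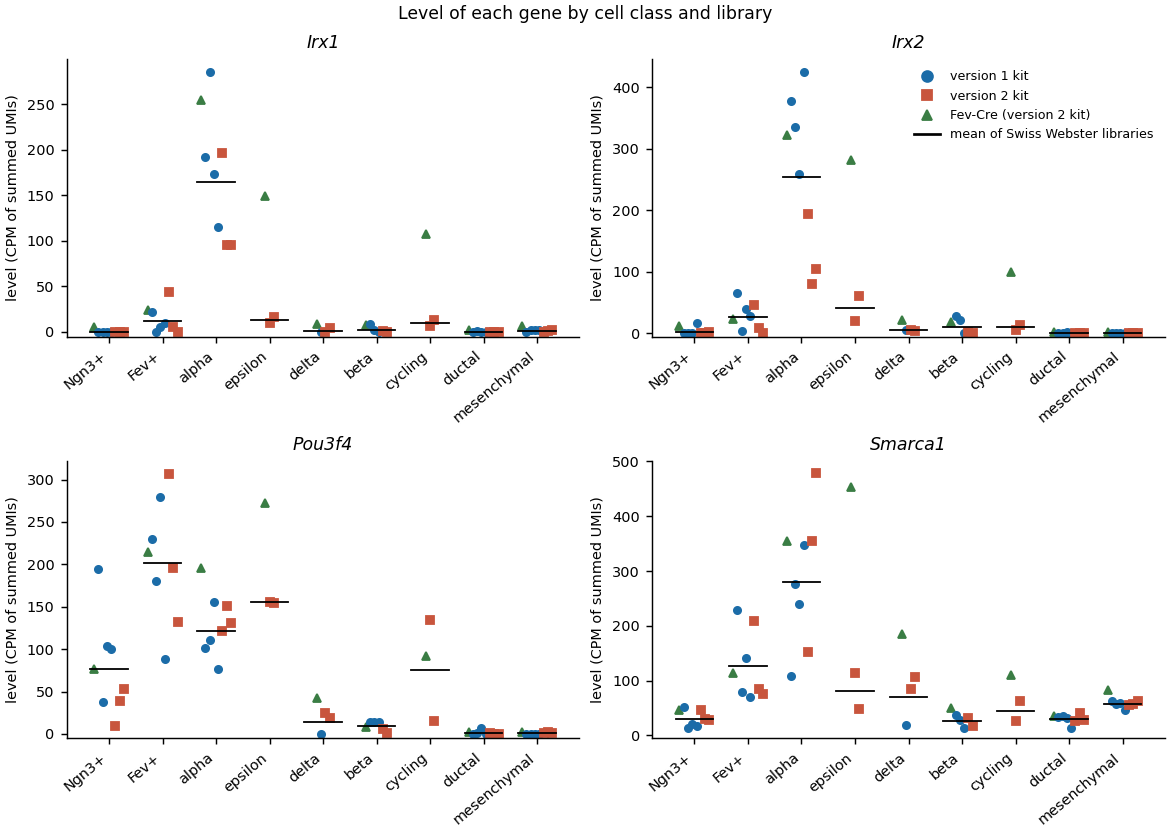
Level of each gene (CPM of summed UMIs, linear axis) in 7 endocrine classes and in ductal and mesenchymal cells, with 1 point per library and class of at least 20 cells and a bar at the mean of the Swiss Webster libraries. In the Swiss Webster libraries Irx1 and Irx2 stood apart in alpha-like cells, and Pou3f4 was as high in Fev+-like and epsilon-like cells. The Fev-Cre library (triangles) was high for all 4 genes in epsilon-like cells, and its cycling cells held 107 CPM of Irx1 and 99.2 CPM of Irx2.

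Pou3f4 was not highest in alpha-like cells. Its level in Fev+-like cells was 88.9 to 307 CPM with a median of 196 CPM (202 ± 77.5, n = 7), against 77.1 to 155 CPM with a median of 121 CPM in alpha-like cells (121 ± 27.7, n = 7). Epsilon-like cells held 155 and 155 CPM, and Ngn3+-like cells 9.66 to 195 CPM with a median of 53.3 CPM. These 4 classes overlapped with their neighbours in that order. In each of the 8 libraries the Fev+-like level was at least the alpha-like level, with a ratio of 101% to 253%. Cycling cells held 15.7 and 135 CPM in 2 libraries, the higher value lying within the alpha-like range. Delta-like cells were lower, at 0 to 24.4 CPM in 3 libraries, as were beta-like cells at 1.34 to 14.1 CPM. Of the 56 non-endocrine combinations the highest was 15.1 CPM.

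In the Swiss Webster libraries Smarca1 was highest in alpha-like cells at E14.5 and E17.5 and was also present outside the endocrine compartment. Alpha-like cells held 109 to 478 CPM with a median of 276 CPM (280 ± 127, n = 7), overlapping with Fev+-like cells at 70.2 to 230 CPM (127 ± 67.6, n = 7). At E12.5 the order was the other way in both kits: 230 CPM in Fev+-like against 109 CPM in alpha-like cells with version 1, and 209 against 153 CPM with version 2. Epsilon-like cells held 48.1 and 115 CPM, delta-like cells 19.3 to 106 CPM, Ngn3+-like cells 12.6 to 51.9 CPM and beta-like cells 14.1 to 37.3 CPM. Non-endocrine cells carried Smarca1 as well, up to 80.1 CPM.

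Irx2 differed more between the version 1 and version 2 libraries than the other members did. Those libraries differ in kit, litter, day and CD140a depletion, which cannot be told apart here. In alpha-like cells Irx2 was 1.95-fold, 3.68-fold and 4.07-fold higher with version 1 than with version 2 in the E12.5, E14.5 and E17.5 libraries. The same ratios for Smarca1 were 0.715, 0.728 and 0.726, those for Pou3f4 were 0.836, 0.877 and 0.588, and those for Irx1 were 0.982, 2.40 and 1.21. Values across stages are therefore compared within a kit. The Fev-Cre library of E14.5, also of version 2 but not depleted, held 322 CPM of Irx2 and 254 CPM of Irx1 in alpha-like cells. At that stage Swiss Webster levels were 297 and 229 CPM with version 1 (means of its libraries) and 80.9 and 95.5 CPM with version 2. The Fev-Cre library also differs in strain and litter, and the cause was not tested.

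In the Fev-Cre library the alpha-like cells held 254 CPM of Irx1 (95% interval 240 to 269), 322 CPM of Irx2 (306 to 338), 196 CPM of Pou3f4 (184 to 209) and 356 CPM of Smarca1 (339 to 373). GFP transcript was detected in 99.8% of these cells, 86.4% of Fev+-like cells and 17.3% of Ngn3+-like cells (median depth 7014 UMIs). The non-endocrine classes ran from 12.9% of neural to 37.0% of acinar cells, with 13.8% of mesenchymal cells, at median depths of 5880 to 18271 UMIs. The Ngn3+-like share thus lay within that background. Its 52 cycling cells held 107 CPM of Irx1 and 99.2 CPM of Irx2, beside 24351 CPM of Gcg. In epsilon-like cells, which express the ghrelin gene Ghrl, Irx1 was at 149 CPM, Irx2 at 281 CPM, Pou3f4 at 272 CPM and Smarca1 at 453 CPM, beside 9780 CPM of Gcg. The 2 Swiss Webster libraries with at least 20 epsilon-like cells were lower in all 4 genes, as given above, and held 23.6 and 50.8 CPM of Gcg, whereas the interval of the summed version 1 cells (160 to 322 CPM) covers the Fev-Cre level of Irx2. With 1 Fev-Cre library these values have no replicate check, and strain, sort and the make-up of the cluster cannot be told apart.

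In single cells the 4 transcripts were sparse. Each cell was thinned to 2000 UMIs (version 1) or 3000 UMIs (version 2), leaving out 18 shallower alpha-like cells. The share of alpha-like cells with an Irx1 UMI was then 20.5% to 47.1% over the 7 libraries, against 0% to 0.0877% of ductal cells, which should lack the gene. For Irx2 the shares were 22.8% to 57.7% against 0% to 1.02%, and for Pou3f4 17.2% to 32.5% against 0% to 1.02%. Smarca1 was detected in 17.3% to 65.6% of alpha-like cells and in 4.32% to 12.7% of ductal cells. Without thinning the alpha-like ranges were 33.3% to 77.3%, 30.7% to 92.7%, 25.0% to 61.1% and 44.4% to 91.1%, at median depths of 3008 to 10114 UMIs in alpha-like and 3874 to 12836 UMIs in ductal cells. Fewer cells with a transcript and fewer transcripts per cell cannot be told apart at these depths.

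Many alpha-like cells held transcripts of more than 1 member. In thinned alpha-like cells, 14.1% to 27.4% had no UMI of any member in the 7 Swiss Webster libraries, and 31.5% to 51.7% had UMIs of at least 2 members. In the Fev-Cre library 6.56% had none and 69.1% at least 2. Irx1 and Irx2 were both seen in 168 of 579 Fev-Cre cells, where the product of their shares gives 159 cells. The pair was seen together in 56 of 238 version 2 cells of E12.5 (52.2 from the product of shares), in 23 of 228 of E14.5 (14.1) and in 30 of 404 of E17.5 (22.3). With version 1 the counts were 8 cells at E12.5 (8.65 from the product), 11 and 12 at E14.5 (8.53 and 5.14) and 2 at E17.5 (2.44). The count was above the product in 6 of 8 libraries and below it in 2, with a ratio of 0.818 to 2.34, and in these sparse counts no test was made. Of the Fev-Cre cells, 105 showed Irx1 without Irx2 and 170 Irx2 without Irx1.

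Onset relative to Gcg separated Pou3f4 from the rest. As a percent of the alpha-like level of the same gene, the Fev+-like level of Pou3f4 had a median of 146% over 8 libraries. For Smarca1 the median was 30.3% (15.98% to 210.1%), for Irx2 9.21% (0.456% to 23.6%) and for Irx1 6.84% (0% to 22.2%), while for Gcg it was 0.105% (0.0288% to 3.09%). In Ngn3+-like cells Pou3f4 already stood at a median of 39.8% of its alpha-like level (7.97% to 192%), Smarca1 at 8.76% and Irx1 and Irx2 at 0%. Leaving out Fev+-like cells with a Gcg UMI kept this order of medians in the 7 libraries with at least 20 remaining cells, with medians of 124% for Pou3f4, 24.5% for Smarca1, 7.09% for Irx2 and 3.37% for Irx1. The order did not hold in each library, since Irx1 was then above Irx2 at E17.5 with version 1 (8.67% against 7.09%) and at E12.5 with version 2 (23.0% against 20.4%). A Gcg UMI alone did not set Gcg-expressing cells apart, since in the Fev-Cre library 81.0% of Fev+-like cells had one (median depth 6521 UMIs), as did 77.5% of mesenchymal cells (5880 UMIs), or 55.8% and 53.0% when thinned to 3000 UMIs. The 56 Fev+-like cells without one held 1 Irx1 and 2 Irx2 UMIs (2.90 and 5.81 CPM). The 238 with one held 53 and 52 UMIs (27.7 and 27.2 CPM). Leaving these out lowered the Fev-Cre percent of the alpha-like level from 9.41% to 1.14% for Irx1 and from 7.44% to 1.81% for Irx2.

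Along a diffusion pseudotime over Ngn3+-like, Fev+-like and alpha-like cells, cut into 10 bins of equal cell number, onset was read as the first bin at or above 50% of a gene's highest bin. Pou3f4 came before Gcg in 7 of 8 libraries and in the same bin in 1. At E14.5 it reached that level in bin 5, 3 and 5 of the 3 Swiss Webster libraries, against bin 8, 8 and 9 for Gcg. Irx1 shared the bin of Gcg in 7 libraries and came after it in 1. Irx2 shared it in 5, came before in 1 (bin 3 against 7 at E17.5 with version 1) and after in 2. Smarca1 was split, with 2 before, 4 in the same bin and 2 after. In both E12.5 libraries the path placed Fev+-like cells after alpha-like cells, so it did not run in the order of differentiation there. In the 6 libraries that ran in order, Pou3f4 preceded Gcg in 6 of 6 and Irx1 shared the bin of Gcg in 6 of 6. Such a choice by class order, with Pou3f4 at least as high in Fev+-like as in alpha-like cells, largely fixes that Pou3f4 comes first. Counts in libraries picked this way, here and below, thus restate the class levels. Only named classes lay on the path. It therefore left out the unnamed Fev-Cre cluster of 358 cells, with Irx1 at 34.5%, Irx2 at 47.1% and Gcg at 9.41% of alpha-like. The version 2 library of E17.5 was barely in order, with Fev+-like cells at a median rank of 58.8% and alpha-like cells at 66.7% of the path and 17 to 47 Fev+-like cells in each of bins 4 to 10. There the order turned with resolution 2 (66.8% against 62.0%) and 10 components (66.1% against 62.5%), and with 30 neighbours the ranks were 63.81% and 63.76%. With 20 narrower bins Pou3f4 still preceded Gcg in 6 of these 6, but Irx1 shared the bin of Gcg in 1 and came after it in 5. With Gcg among the clustering genes Pou3f4 came after Gcg in 3 of 8 libraries, both of E12.5 and the version 2 library of E14.5 (bin 6 against 5). In these 3 the path again placed Fev+-like after alpha-like cells (at E14.5 by median ranks of 71.1% and 66.0%), and Pou3f4 preceded Gcg in 5 of the 5 that ran in order.

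**Figure D2:**
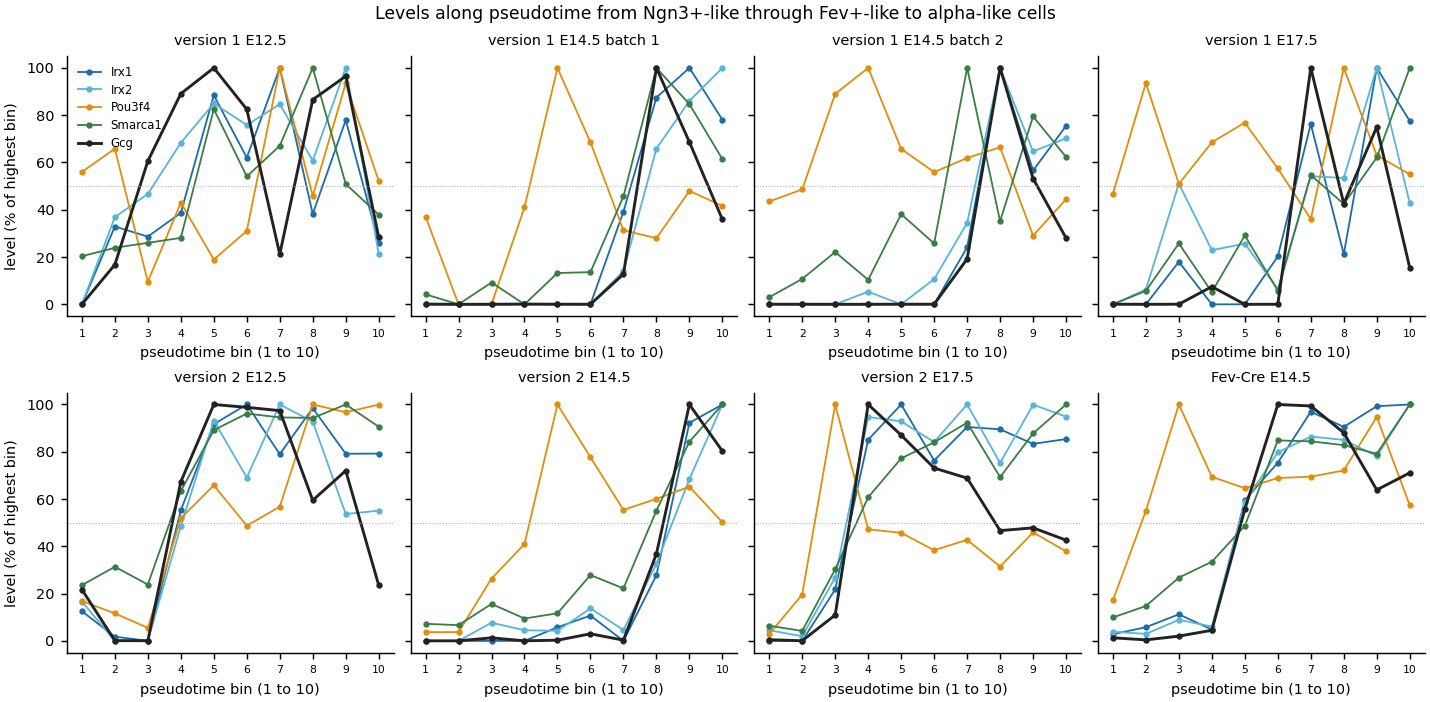
Level of the 4 genes and Gcg in each of 10 pseudotime bins, as a percent of the gene's highest bin, in 1 panel per library, with a dotted line at 50%. In the 6 libraries other than E12.5, Pou3f4 (orange) crossed 50% before Gcg (black), and Irx1 (dark blue) crossed in the same bin as Gcg at this bin width.

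The clusters within the Fev+-like class differed in their Pax4 level, a factor of early endocrine cells, and in the 4 genes. In version 1 the 57 cells of the Pax4-high cluster (666 CPM) held 380 CPM of Pou3f4 and 62.5 CPM of Smarca1, with no UMI of Irx1 or Irx2 (95% interval up to 19.2 CPM). The 209 cells of the other version 1 cluster, with Pax4 at 160 CPM, held 162 CPM of Pou3f4, 134 CPM of Smarca1, 39.5 CPM of Irx2 and 8.18 CPM of Irx1 (6 UMIs), a difference in Irx1 that was not detectable at this depth. In version 2 the 111 cells of the Pax4-high cluster (391 CPM) held 232 CPM of Pou3f4, 67.9 CPM of Smarca1, 11.3 CPM of Irx1 (95% interval 4.89 to 22.3) and 14.2 CPM of Irx2 (6.79 to 26.03), beside 1390 CPM of Gcg. The 282 cells of the Chgb-high version 2 cluster, with Pax4 at 100.2 CPM, held 221 CPM of Pou3f4, 136 CPM of Smarca1, 15.5 CPM of Irx1 and 17.6 CPM of Irx2. The last Fev+-like cluster of version 2, of 277 cells with Pax4 at 92.5 CPM, held 129.7 CPM of Pou3f4, 76.7 CPM of Smarca1, no UMI of Irx1 and 1.39 CPM of Irx2. Its cells were almost all of E17.5, while the Chgb-high cluster held most Fev+-like cells of E12.5. Differences between these clusters therefore cannot be told apart from stage. The Iroquois levels of the Pax4-high cluster of version 2 lay below the upper limit of that of version 1, so the kits were not shown to differ. A version 2 cluster of 209 cells, of which 206 came from E12.5, kept no class name, since it had more Ngn3+ than Fev+ markers while its 10 leading genes held a Fev+ marker (Cck) and no Ngn3+ marker. Neurog3 was at 3263 CPM, Pax4 at 409 CPM and Fev at 252 CPM in it. It held 148 CPM of Pou3f4, 32.9 CPM of Smarca1 and no UMI of Irx1 or Irx2.

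The Fev-Cre library held more intermediate cells. A cluster of 358 cells without a class name, with Chgb (chromogranin B) at 14203 CPM and Fev at 729 CPM, carried Gcg at 9.41% of its alpha-like level. In the same cells Irx1 stood at 34.5% of its alpha-like level, Irx2 at 47.1%, Pou3f4 at 111% and Smarca1 at 126%. All 4 genes were therefore nearer to their alpha-like level in that cluster than Gcg was. A second unnamed cluster of 258 cells, led by the pancreatic polypeptide gene Ppy and by Pyy, held Irx1 at 32.1%, Irx2 at 45.0%, Pou3f4 at 51.0%, Smarca1 at 58.8% and Gcg at 10.2%. The last, of 331 cells and led by Mnx1 and Pdx1, known from beta cells, held Irx1 at 4.17% (10.6 CPM), Irx2 at 7.25% (23.3 CPM), Pou3f4 at 54.8% (107 CPM), Smarca1 at 26.1% (92.9 CPM) and Gcg at 0.824%. The non-endocrine classes of this library reached 6.77 CPM of Irx1, 17.7 CPM of Irx2, 50.2 CPM of Pou3f4 and 82.9 CPM of Smarca1.

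**Figure D3:**
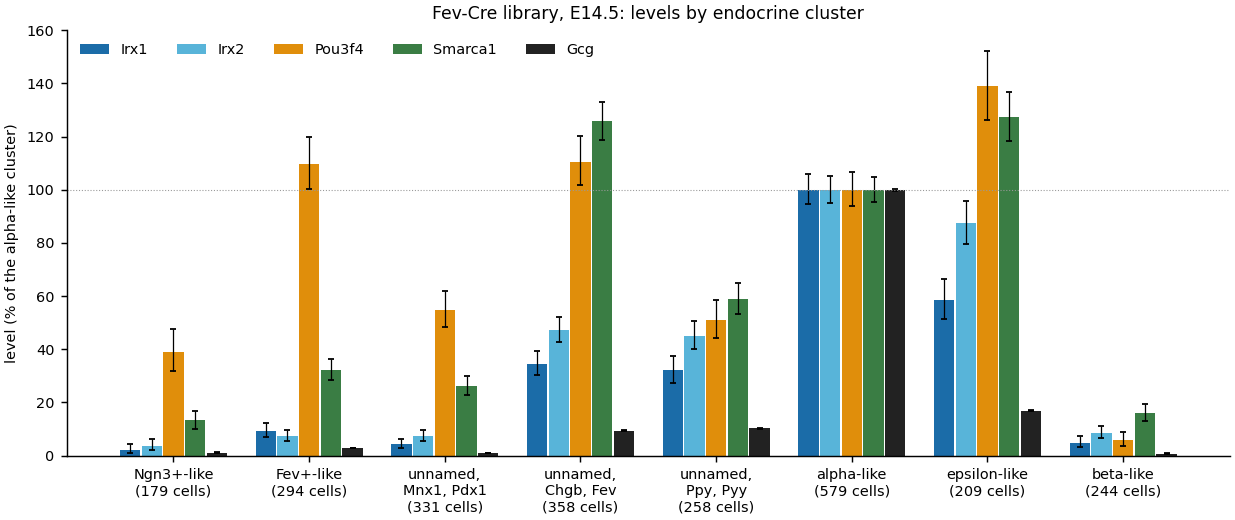
Level of each gene in 8 of the 11 endocrine clusters of the Fev-Cre library as a percent of the alpha-like cluster, with bars from 0 and exact Poisson 95% intervals. Pou3f4 was at 109.7% in the Fev+-like cluster, and Smarca1 exceeded 100% in the unnamed cluster of 358 cells while Gcg was still at 9.41%.

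The course over stages within a class was tested, in genes that had been chosen with earlier results of these data known, so the p-values are not those of an independent test. UMI sums of the 7 Swiss Webster libraries (2 from E12.5, 3 from E14.5, 2 from E17.5) entered edgeR's quasi-likelihood test with terms for kit and stage, and a gene was called at a Benjamini-Hochberg adjusted p below 0.05 over all genes tested and at least 2-fold. Each library is a separate pool of 1 or more litters. Only E14.5 with version 1 had more than 1 pool of a stage within a kit. The p-values therefore measure the spread of those pools and the disagreement of the kits over stages. In alpha-like cells, 5.10% of 5946 genes were called between E17.5 and E12.5, 3.58% between E14.5 and E12.5 and 0.824% between E17.5 and E14.5. With the version 1 batches as a replicate block the last count rose from 49 to 120 genes and that of E14.5 against E12.5 from 213 to 321.

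With terms for kit and stage, Smarca1 was the only member called in alpha-like cells. With version 1 the E12.5 library held 109 CPM, the E14.5 libraries 276 and 241 CPM and the E17.5 library 347 CPM, and with version 2 the 3 stages held 153, 355 and 478 CPM. All 3 E14.5 and both E17.5 libraries were above both E12.5 libraries. The 2 wells of the version 2 E17.5 pool gave 443 and 516 CPM. Smarca1 rose by 1.72 ± 0.28 (SE) on the log2 scale from E12.5 to E17.5 (edgeR adjusted p = 0.000452) and by 1.13 ± 0.26 from E12.5 to E14.5 (edgeR adjusted p = 0.0142). Within each kit the E17.5 level was 3.18-fold and 3.13-fold the E12.5 level. From E14.5 to E17.5 the difference was 0.60 ± 0.25 (edgeR adjusted p = 0.373), and in that comparison edgeR and DESeq2 called none of the 4 members, with 1 at an unadjusted p below 0.05. The first call was lost without the version 2 E12.5 library (1.64, edgeR adjusted p = 0.0549) and without the kit term (1.73, edgeR adjusted p = 0.106), where the size was nearly as large. The second call was lost without the version 1 E12.5 (1.20), the version 2 E12.5 (1.08) or the version 2 E14.5 library (1.14).

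The other members did not pass that test in alpha-like cells. In simulated counts the test called 18 of 100 genes changed 2-fold between E12.5 and E17.5. A member that was not called is thus not shown to be unchanged. Irx1 was at 192, 285 and 174, and 116 CPM over the 3 stages with version 1 and at 196, 95.5 and 96.0 CPM with version 2. The E17.5 levels were the lowest or close to it in both kits, and the difference from E12.5 was -0.79 ± 0.33 log2 (edgeR adjusted p = 0.192). Irx2 was at 377, 336 and 259, and 424 CPM with version 1 and at 194, 80.9 and 104 CPM with version 2, so the kits differed in the direction from E12.5 to E17.5. Its largest difference was that of E14.5 from E12.5, at -0.91 ± 0.27 log2 (edgeR adjusted p = 0.0664). That difference was called at -1.02 ± 0.27 with the batches as a replicate block (edgeR adjusted p = 0.0153) and at -1.02 with Gcg among the clustering genes (edgeR adjusted p = 0.0402), and it was -0.48 without the version 2 E12.5 library (edgeR adjusted p = 0.795), -0.52 without the kit term and -0.24 with the Fev-Cre library added (edgeR adjusted p = 0.885). For Irx2, E17.5 differed from E12.5 by -0.37 ± 0.29 (edgeR adjusted p = 0.581). Pou3f4 stayed between 77.1 and 155 CPM with a log2 difference of 0.07 ± 0.29 (edgeR adjusted p = 0.936), and Gcg differed by 0.32 ± 0.41 (edgeR adjusted p = 0.769). In version 2 the alpha-like cells of the 3 stages fell mostly in 3 separate clusters (223 of 238 cells of E12.5, 222 of 228 of E14.5 and 399 of 404 of E17.5), whereas version 1 had a single alpha-like cluster. The leading genes of the E17.5 cluster included Ghrl and Ppy, and those of the E14.5 cluster Gast and Pyy. In version 2 a change over stages thus cannot be told apart from the make-up of these clusters, which was not tested.

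**Figure D4:**
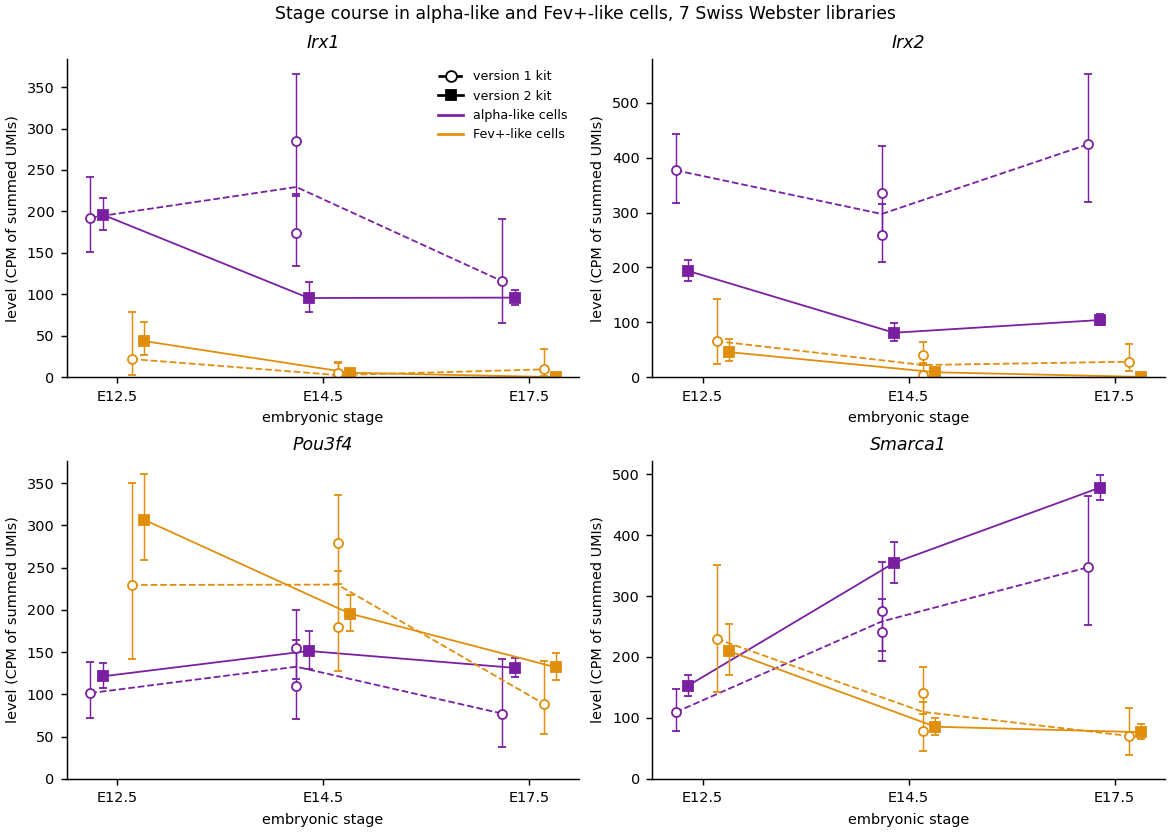
Level of each gene (CPM of summed UMIs, linear axis from 0) by stage in alpha-like (purple) and Fev+-like cells (orange) of the 7 Swiss Webster libraries, with exact Poisson 95% intervals, open circles and dashed lines for version 1 and filled squares and solid lines for version 2. Lines join the mean at each stage, and Smarca1 ran upwards in alpha-like and downwards in Fev+-like cells in both kits.

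In Fev+-like cells 3.42% of 6442 genes were called between E17.5 and E12.5, 1.15% between E17.5 and E14.5 and 0.761% between E14.5 and E12.5, the last 2 counts being 74 and 49 genes, or 124 and 107 with the batches as a replicate block. Of the 4 members 3 were called for the first of these, by edgeR with all 3 lower at E17.5 and by DESeq2 only Smarca1. For the others edgeR and DESeq2 called none of the 3 tested, with 2 members between E14.5 and E12.5 and 1 between E17.5 and E14.5 at an unadjusted p below 0.05. Smarca1 was at 230, 78.5 and 141, and 70.2 CPM with version 1 and at 209, 85.4 and 76.4 CPM with version 2, and fell by 1.53 ± 0.33 on the log2 scale (edgeR adjusted p = 0.0120). Pou3f4 was at 230, 180 and 280, and 88.9 CPM with version 1 and at 307, 196 and 132 CPM with version 2, and fell by 1.27 ± 0.33 (edgeR adjusted p = 0.0368). The E17.5 libraries were below every earlier library for both genes. Irx2 was at 65.6, 4.62 and 39.6, and 28.1 CPM with version 1 and at 45.6, 8.89 and 0.475 CPM (1 UMI) with version 2, and fell by 3.57 ± 0.91 (edgeR adjusted p = 0.0333). Irx1, with 36 UMIs in all, did not pass the filter on low counts, its levels being 21.9, 0 and 4.95, and 9.36 CPM with version 1 and 43.6, 5.34 and 0 CPM with version 2.

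Gcg was also called in Fev+-like cells. It fell by 3.74 ± 0.41 on the log2 scale from E12.5 to E17.5 (edgeR adjusted p = 2.24e-05), from 98.4 to 23.4 CPM with version 1 and from 1498 to 88.3 CPM with version 2. The 9 Gcg UMIs of the version 1 E12.5 library came from 1 of its 20 Fev+-like cells, and the E17.5 value rests on 5 UMIs. In the version 2 E12.5 library 22.0% of the 82 Fev+-like cells (18) had a Gcg UMI at a median depth of 5107 UMIs, as did 27.4% of mesenchymal cells (5464 UMIs), where Gcg was at 55.05 CPM. With each cell thinned to 3000 UMIs the shares were 19.5% of Fev+-like, 15.2% of mesenchymal and 11.3% of ductal cells. The 82 cells held 722 Gcg UMIs, whereas the Chgb-high cluster that held 75 of them had 181 over all version 2 libraries. Most of the 722 UMIs therefore came from the few cells outside that cluster. The part of free Gcg RNA in the result was not tested. The 64 Fev+-like cells without a Gcg UMI held 45.2 CPM of Irx1, 39.5 CPM of Irx2, 308 CPM of Pou3f4 and 223 CPM of Smarca1, beside 43.6, 45.6, 307 and 209 CPM in the whole class. The Fev+-like cells of the version 2 libraries also came from different clusters, with 75 of 82 at E12.5 in a Chgb-high cluster and 274 of 274 at E17.5 in another, which rested on 3 detected markers. Each member's call was lost without the version 2 E12.5 library (edgeR adjusted p = 0.404 for Smarca1, 0.629 for Pou3f4 and 0.698 for Irx2) and without the version 2 E17.5 library (0.0980, 0.140 and 0.672). The call of Gcg was lost without the same libraries (edgeR adjusted p = 0.137 and 0.0751) and with resolution 2, where it fell by 1.41 log2 (0.123). Gcg fell by 2.07 log2 with Gcg among the clustering genes and by 8.27 log2 with doublets kept. Irx2 fell by 6.04 log2 without the version 1 E17.5 library. Each member's call was also lost without the version 1 E12.5 library, without the kit term, with doublets kept and with resolution 2.

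A joint fit of both classes was added after these courses had been seen, so it restates them and is no separate test. It called 1.91% of 7052 genes. In it the change from E12.5 to E17.5 was higher in alpha-like than in Fev+-like cells by 3.29 ± 0.33 log2 (SE) for Smarca1, 1.37 ± 0.28 for Pou3f4, 3.28 ± 0.69 for Irx2 and 4.39 ± 0.88 for Irx1. Leaving out 1 library at a time moved the difference of Smarca1 between 2.99 and 3.64. For Irx1 and Irx2 the Fev+-like side rested on few UMIs, 0 and 1 in the version 2 E17.5 library, and without the version 1 E17.5 library their differences were 7.47 and 5.34. The alpha-like level against that of other classes was used to choose the genes, and the Fev+-like cells came from different clusters at each version 2 stage, as given above.

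Related genes gave a frame for each member. Of 4 other Iroquois genes (Irx3, Irx4, Irx5 and Irx6) none had counts enough to be tested, and in alpha-like cells Irx3 averaged 1.102 CPM, Irx5 0.0334 CPM and Irx4 0 CPM. Of 14 other POU genes 2 were tested in alpha-like cells, among them Pou2f1 (26.2 ± 23.4 CPM, n = 7). Neither was called by edgeR or by DESeq2 from E12.5 to E17.5, with 1 of the 2 at an unadjusted p below 0.05. Pou6f1, at 2.67 CPM, was not tested. Of 13 genes encoding Smarca5, the other ISWI ATPase, and partners of either enzyme, 11 were tested in alpha-like cells, and none was called between E12.5 and E17.5 by edgeR or DESeq2, with 2 at an unadjusted p below 0.05. Their median log2 difference was 0.06 beside 0.02 over all 5946 genes. Rbbp7 (277 ± 74.7 CPM), Rbbp4 (155 ± 45.5 CPM) and Chrac1 (140 ± 37.1 CPM) were the most abundant of them. In Fev+-like cells 12 of the 13 were tested and none was called by either tool, again with 2 at an unadjusted p below 0.05. Since edgeR missed most 2-fold changes in simulated counts of either class, genes not called are not shown to be unchanged.

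Among 13 transcription factors of alpha and other endocrine cells, 11 were tested in alpha-like cells and 1 rose (5.10% over all genes in either direction), the homeodomain factor Meis2, by 3.65 ± 0.34 on the log2 scale from E12.5 to E17.5 (edgeR adjusted p = 1.72e-06). Isl1, at 1155 ± 319 CPM, and Pax6, at 360 ± 98.1 CPM, pan-endocrine factors, did not pass. In Fev+-like cells 12 of the 13 were tested from E12.5 to E17.5, of which 3 rose and 2 fell by edgeR, beside 3.42% called over all genes. DESeq2 called 3 of the 12. Among those that rose were Rfx6, by 1.80 log2, and Meis2, by 1.66 log2. Among those that fell was Etv1, by 1.38 ± 0.36 (edgeR adjusted p = 0.0412). The median over the 12 was -0.24 log2 beside 0.03 over all 6442 genes.

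A list of 9 alpha-cell products and alpha branch genes was in part named by the study on these samples and is no independent evidence of a direction. In alpha-like cells Pcsk2, which encodes a prohormone convertase, rose by 1.42 ± 0.33 log2 and Auts2 by 1.21 ± 0.29 from E12.5 to E17.5, and Slc38a5, an amino acid transporter, fell by 1.87 ± 0.37. These were the calls of edgeR, and DESeq2 called 2 of the 9 there. The transport protein gene Ttr, at 13965 ± 2115 CPM, did not pass. In Fev+-like cells 7 of the 9 were called from E12.5 to E17.5, beside 3.42% of all genes. Pcsk2 rose by 2.13 ± 0.34, and 6 fell: Gc by 6.06 ± 1.16, Gcg as above, Wnk3 by 2.27 ± 0.42, Slc38a5 by 2.20 ± 0.32, Auts2 by 2.18 ± 0.41 and Peg10 by 1.75 ± 0.40. Auts2, like Smarca1, was thus called in both classes with opposite signs. Of the 12 genes of these lists called in Fev+-like cells from E12.5 to E17.5, 2, with Slc38a5 among them, were still called without the version 2 E12.5 library, 4 without the version 2 E17.5 library, 8 without the version 1 E12.5 library, 1 with doublets kept, 1 with resolution 2 and 0 without the kit term. With the batches as a replicate block Etv1 and Pcsk2 were also called in alpha-like cells from E14.5 to E17.5, by 1.05 and 1.26 log2, as were Tmem27 (1.12) and Gcg (-1.45) in Fev+-like cells. Of the 4 called in alpha-like cells, Meis2 alone was still called without either E12.5 library, without the version 2 E17.5 library or without the kit term.

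Genes with a pattern like a member's were ranked by Pearson's r of log2(CPM + 10), centred within library, over 40 combinations of endocrine class and library and among 7676 genes. The points share libraries and depth, and no test was made. They also hold the class levels by which the members were chosen. A high r with another member or with an alpha-cell gene such as Gcg is thus in part fixed by that choice. For Irx1 the closest were Irx2 (r = 0.959) and Gcg (0.905). Irx2 was followed most closely by Irx1, then by Gm20554 (0.898) and Nap1l5 (0.892). Pou3f4 had weaker matches in Hsp90aa1 (0.845) and Sdcbp (0.836). For Smarca1 the closest were Ctxn2 (0.913), Drc1 (0.885) and Mum1l1 (0.870).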

How the data were processed

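The authors dissociated pooled embryonic pancreata, sorted live cells, made 10x libraries and, per their methods and processing notes, aligned reads to mm10 with Cell Ranger 1.1 (version 1 kit) or 2.1 (version 2 kit). They deposited UMI counts per gene and barcode, not normalized. The Fev-Cre matrix aligned with the GFP and tdTomato sequences was used, and the one without them served as an alternative. The 10 deposited matrices form 8 libraries.

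From these counts, cells with at least 200 genes and genes in at least 3 cells were kept. Total UMIs were 15671934 to 127151679 per library or well, and 0 to 156 barcodes were shared between any pair (at most 1.79% of the smaller). Haemoglobin transcripts took 0.0128% to 60.9% of a library's UMIs. Cells were clustered in Python 3.11.15 (scikit-learn 1.9.0, leidenalg 0.10.2, resolution 1, 2000 variable genes, 20 components), endocrine cells of each data set jointly, without the 4 genes and Gcg, and named from markers (at least 3 markers at 1.5-fold and in 10% of cells). Cells with markers of 2 exclusive compartments at 30% of the usual level (0.0433% to 6.32% of cells) were left out as doublets. Naming thresholds and the joint clustering were set after clusters and levels had been seen, and the names are not the authors'. Classes with under 20 cells were left out of a library.

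Stage was tested on summed counts with edgeR 4.0.16 (TMM, quasi-likelihood, kit and stage), SE being the log2 difference over the root of the quasi-F. The batch number in the labels joins 1 version 1 pool of each stage, collected apart from batch 1, so batch 1, batch 2 and version 2 were also fitted as a replicate block. Each batch 2 group held 1 library, so no correlation of deviations could be had. DESeq2 1.42.0, other normalization, filters, kit term, classes and left-out libraries were alternatives. Scripts were tested on simulated counts, with known changes given at E17.5 to genes of the more abundant part. For E17.5 against E12.5, edgeR called 18 of 100 genes changed 2-fold and 97 of 100 changed 4-fold in alpha-like cells. In Fev+-like cells it called 28 and 95 of 100. The members and gene lists were chosen with earlier results of these data known. Besides the members and Gcg, every called gene of a list and its 3 genes with the highest mean alpha-like CPM were named, apart from some genes that are not reported here. Genes describing a cluster were chosen after their values were seen.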

Additional observations from a re-analysis of the deposited data

Results flagged for a closer look

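Of 19 groups of libraries in which a lone extreme was looked for with Dixon's test, 4 held one, where chance gives about 5% of groups. Gcg was at 1498 CPM in Fev+-like cells of the version 2 E12.5 library, far above the other 6. It was 228 CPM with Gcg among the clustering genes and 234 CPM with resolution 2. Irx2 was at 16.8 CPM in Ngn3+-like cells of the version 1 E17.5 library, where the others held 2.54 CPM at most, but this is 1 UMI in 22 cells, below the 50.3 CPM that 3 UMIs give at that depth. Gcg was at 206 CPM in Ngn3+-like cells of the version 2 E17.5 library and at 2029 CPM in beta-like cells of the version 1 E14.5 batch 2 library.

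In a joint fit added after the data had been seen, the change from E12.5 to E17.5 was higher in alpha-like than in Fev+-like cells by 4.39 log2 for Irx1, 3.28 for Irx2, 1.37 for Pou3f4 and 3.29 for Smarca1. Since the fit followed from the courses it describes, its p-values are no independent evidence. By the adjusted p of that fit Smarca1 passed without any single library, while the other 3 did not pass without the version 2 E12.5 library (edgeR adjusted p = 0.611 for Irx1, 0.409 for Irx2 and 0.493 for Pou3f4) or without the version 2 E17.5 library (0.832, 0.490 and 0.692).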

How the results depend on the processing

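Counts of called genes depended on the setting, and the 3 values of each triple below are for E17.5 against E12.5, E17.5 against E14.5 and E14.5 against E12.5. In alpha-like cells (303, 49 and 213 genes) DESeq2 called 188 for the first and 130 for the third, no filter on low counts gave 479 and 118 for the first pair, no kit term gave 62, 1 and 24, adding the Fev-Cre library gave 25 for the second and resolution 2 gave 114 for the second. In Fev+-like cells (220, 74 and 49 genes) DESeq2 called 141 and 49 for the first pair, no filter gave 353, 194 and 149, no kit term 27, 4 and 0, adding the Fev-Cre library 117, 47 and 9, keeping doublets (5 libraries left) 22, 6 and 2, resolution 2 (6 libraries left) 80, 28 and 10, and allowing Gcg among the clustering genes 40 and 29 for the last pair. Beside the count of 0, edgeR had 486 genes at an unadjusted p below 0.05, and DESeq2, run with the kit term, called 42. Leaving out 1 library at a time gave 85 to 593, 7 to 160 and 92 to 402 genes in alpha-like cells and 41 to 300, 25 to 131 and 1 to 138 in Fev+-like cells. The lowest counts came without a version 2 library and the highest without version 1 E14.5 batch 1 or version 1 E17.5. The cause was not tested.

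For the members, log2 differences are E17.5 against E12.5 unless stated, with adjusted p-values of the tool named or else of edgeR. In alpha-like cells Pou3f4 turned to -0.00204 with the Fev-Cre library added, -0.14 with doublets kept, -0.094 without the version 2 E12.5 and -0.42 without the version 2 E17.5 library (range -0.42 to 0.19), and Irx2 turned to 0.095 without the version 2 E12.5 library (-0.78 to 0.095). Neither was called in any of these. Smarca1 was not called without the kit term, at 1.73 (adjusted p = 0.106) and, for E14.5 against E12.5, 1.01, nor for the latter with resolution 2, at 1.24. In Fev+-like cells calls were lost for Irx2 with DESeq2 (-3.30), no kit term (-3.31), the Fev-Cre library (-3.47), doublets kept (-1.36), Gcg allowed (-3.37, adjusted p = 0.0501) and resolution 2 (-4.44), for Pou3f4 with DESeq2 (-1.29), no kit term (-1.27), the Fev-Cre library (-1.27), doublets kept (-0.87) and resolution 2 (-1.42), and for Smarca1 with no kit term (-1.56), doublets kept (-1.60) and resolution 2 (-1.59). Each kept its direction. The call of Gcg was lost with no kit term (-3.77, adjusted p = 0.494), the Fev-Cre library (-3.79, 0.0582) and resolution 2 (-1.41, 0.123). Leaving out 1 library gave -1.14 to -0.31 for Irx1 and 1.64 to 1.73 for Smarca1 in alpha-like cells (1.08 to 1.20 for E14.5 against E12.5 and 0.51 to 0.59 for E17.5 against E14.5), and -6.04 to -1.61 for Irx2, -1.66 to -0.99 for Pou3f4 and -1.82 to -1.42 for Smarca1 in Fev+-like cells. The calls of Irx2, Pou3f4 and Smarca1 in Fev+-like cells were also lost without the version 1 E12.5 library (edgeR adjusted p = 0.0513, 0.0891 and 0.0513), that of Irx2 without version 1 E14.5 batch 2 (0.0942) and that of Pou3f4 without version 1 E17.5 (0.129). The difference between the classes ran from 1.37 to 7.47 for Irx1, 1.77 to 5.34 for Irx2, 1.14 to 1.43 for Pou3f4 and 2.99 to 3.64 for Smarca1.

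Mean levels in alpha-like and Fev+-like cells moved by less than 1 SD between libraries under every alternative tried. Without an E14.5 batch or a version 2 well, alpha-like means were 145 to 167 CPM for Irx1, 240 to 254 for Irx2, 115 to 123 for Pou3f4 and 275 to 286 for Smarca1, and Fev+-like means 12.2 to 14.2, 25.5 to 31.4, 189 to 206 and 125 to 135. Before Gcg along pseudotime were Irx1 in 1 library with Gcg allowed and 1 with resolution 2, and Irx2 in 2 with 10 components. Smarca1 was before Gcg in 3 of 8 with 10 components, 3 of 6 with resolution 2 and 1 of 7 without Fev+-like cells with a Gcg UMI. With Gcg allowed it was after Gcg in 4 of 8 and before it in 2. Pou3f4 was before Gcg in 7 of 8 libraries with 10 components, 20 bins or 30 neighbours, in 5 of 8 with Gcg allowed (after it in 3, each a library whose path placed Fev+-like after alpha-like cells, and before it in 5 of the 5 in order), in 6 of 7 without Fev+-like cells with a Gcg UMI and in 5 of 6 with resolution 2. With 20 bins, Irx1 came after Gcg in 6 of 8. With the batches as a replicate block, chosen after seeing the data, 428, 120 and 321 genes were called in alpha-like cells and 304, 124 and 107 in Fev+-like cells, and of the calls of members, Gcg and listed genes 6 were gained, with Irx2 in alpha-like cells from E12.5 to E14.5 (-1.02) among them, and 0 were lost. Depth limits the Iroquois genes outside alpha-like cells, where a library held 0 to 22 UMIs in Fev+-like cells of the Swiss Webster pools.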
